A study of Mus musculus with 15 samples.

Results

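The comparison described here is the change of a treatment effect with time in MC3T3 clone 1b cells, a single clone of an osteoblast precursor line from mouse calvaria. It used 12 of the study's 15 arrays, 3 in each of 4 groups: beta-glycerol phosphate (GP) for 1 day, GP with ascorbic acid (AA) and BMP-2 for 1 day, GP for 3 days, and GP with AA and BMP-2 for 3 days. The cultures given AA and BMP-2 are called treated. Within each prep number, 1 to 3, the log2 difference between treated and GP cultures at day 1 was subtracted from that at day 3. The result, called the late minus early difference, was formed for all 12422 of 12488 probe sets that were not array controls, and 7453 of them were bright enough to be tested. The 3 arrays of untreated cells at day 0 entered the fit for its estimate of the spread and are quoted only as a reference level. GP was in the medium of all 4 groups, and AA and BMP-2 were always given together, so these data hold no effect of GP and no separate effect of either addition. The labels do not say whether the preps were separate cultures, so the errors measure the spread between these arrays, which may be technical.

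BMP-2 binds serine/threonine kinase receptors that phosphorylate Smad proteins, which enter the nucleus and within hours induce target genes such as the Id genes and the inhibitory Smads that restrain the same receptors. AA is needed by the enzymes that hydroxylate collagen, and a collagen matrix is part of the setting in which osteoblast precursors mature over days. A transcript that answers the first signal can therefore be compared with one that follows the maturing culture by asking whether its response is larger at the early or the late time.

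The arrays had been scaled alike, with trimmed means of 149.1 to 150 intensity units. The array of GP prep 3 at day 3 had an actin 3' to 5' ratio of 2.11, a measure of RNA quality, against 1.00 to 1.34 on the others, and 14.3% of its values lay at the floor set for low signal. The count of late minus early differences and some counts by gene list are therefore also given without that array. Counts over all probe sets at each day and with time are not. Of the osteoblast markers, Alpl, Cdh11, Col1a1, Col1a2, Sparc and Tnfrsf11b were bright enough to be tested, while Ibsp and Pth1r were not. Alpl averaged 22.53 units at day 0 and 20.2 and 24.97 in GP cultures at day 1 and day 3, near the filter of 22.3 units. All 5 endothelial markers and 6 of 7 macrophage markers were too dim to be tested. Of 12 skeletal muscle markers, however, 8 were bright enough (Ckm, Mylpf, Myod1, Myog, Tnnc1, Tnnc2, Tnni1 and Tnnt1). Over all probe sets other than controls, 4969 of 12422 were too dim.

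No probe set had a late minus early difference that passed the threshold of an adjusted p under 0.05 (limma, Benjamini-Hochberg over 7453 probe sets, 0% called). The count was also 0 with the prep number as a block, which removes level differences between preps, and 15 with the block and without the GP day 3 prep 3 array, 13 higher and 2 lower. At an unadjusted p under 0.05 there were 270 probe sets without the block, 148 higher and 122 lower, and 650 with it, 347 higher and 303 lower, where 5% of the tests is 373. The smallest adjusted p was 0.634 without the block and 0.0745 with it, and 21 probe sets lay under 0.10 with it. Fitted instead on the 3 within-prep differences alone, the same pairing gave a smallest adjusted p of 0.691, 0 under 0.10 and 460 at an unadjusted p under 0.05, so the adjusted p of 0.0745 quoted below was reached in the blocked fit of all arrays and not in this one. A difference of 4 group means has a larger error than the effect at 1 day: its median standard error was 0.37 on the log2 scale (0.28 with the block), against 0.26 (0.20 with the block) for the effect at either day. A gene can thus have an effect that passed at one day and not at the other with no difference shown between the days.

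Treatment effects at the separate days, by contrast, passed for 69 probe sets at day 1 (0.926%) and 306 at day 3 (4.11%), and for 372 (4.99%) and 1031 (13.8%) with the block. With it, 2.07% rose and 2.92% fell at day 1, and 6.84% rose and 6.99% fell at day 3. Changes from day 1 to day 3 passed for 11 probe sets in treated cultures (0.148%, and 3.84% with the block) and 53 in GP cultures (0.711%, and 1.85% with the block). Over all tested probe sets the effects at the days correlated at r = 0.57, a description over probe sets that share the preps, and their standard deviations were 0.41 at day 1 and 0.53 at day 3. Of the 22 probe sets that rose at day 1, 14 also rose at day 3, and of the 47 that fell at day 1, 32 also fell at day 3. The late minus early difference had 1 sign in all 3 preps for 2365 probe sets (31.7%), 1275 higher and 1090 lower, and it correlated between preps at 0.06 to 0.13 over probe sets. By shape, 28.8% of probe sets had an increase that was larger at day 3, 28.9% a decrease that was larger at day 3, 20.3% an increase that was smaller or gone at day 3, and 22% a decrease that was smaller or gone. An effect that changed sign between the days was placed by the day at which it was larger in size. These shapes are called growing and fading below and are descriptions.

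**Figure D1:**
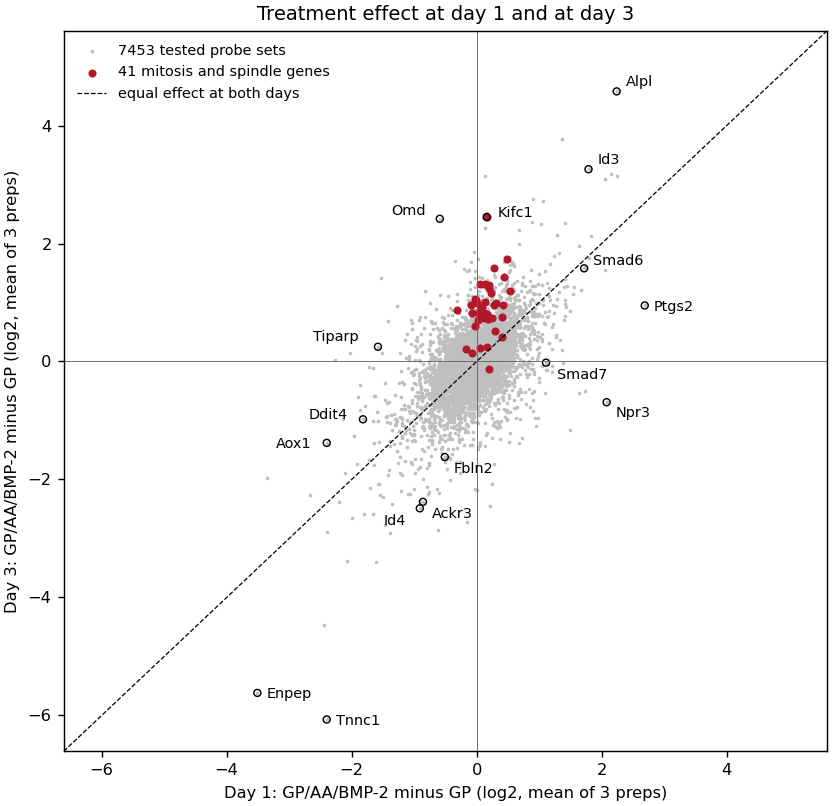
Log2 treatment effect at day 1 (x axis) and at day 3 (y axis) for the 7453 tested probe sets (grey), with the 41 mitosis and spindle genes in red and named genes circled. Points above the dashed line of equal effects have a higher late minus early difference; most mitosis genes lie near 0 on the x axis and above 0 on the y axis.

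The genes named by rule were the 12 with the smallest unadjusted p in each direction among those with the same sign in all 3 preps, and none of the 24 passed. Of the 12 higher ones, 9 act in mitosis: Aurkb, Plk1, Cks2, Stmn1, Cdc20, Ccnb2, Tacc3, Kif2c and Cenpa, with differences of 0.69 to 1.32. The others were Pdgfa, a growth factor chain, at 1.28 ± 0.37 (SE), Zc3hc1, which encodes a nuclear pore protein, at 0.96 ± 0.24, and Cyth2, an exchange factor for ARF GTPases, at 0.94 ± 0.26. The 12 lower ones were more varied in role and ranged from -0.80 for Cdh11 to -3.66 for Tnnc1. For all 24, the 95% interval of the blocked fit lay on 1 side of 0. The intervals were not corrected for the choice of the genes.

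**Figure D2:**
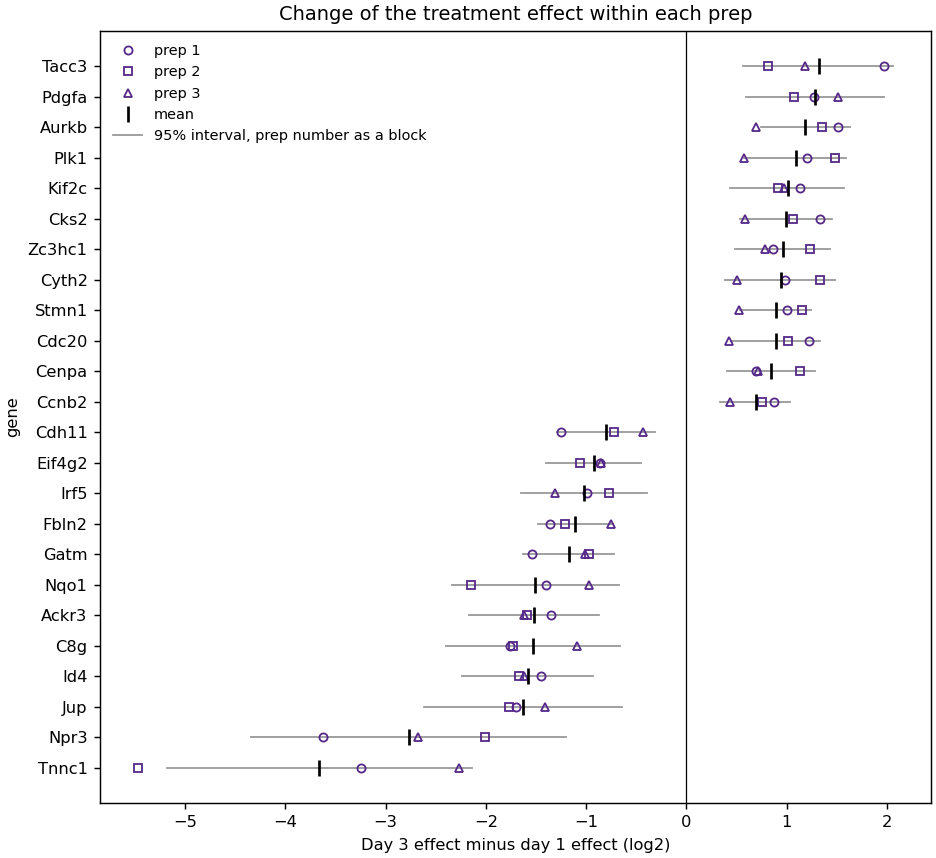
Late minus early difference (log2) in each prep for the 24 genes, with the mean as a black bar and the 95% interval of the fit with prep as a block as a grey line. All 3 preps lie on 1 side of 0 for each gene, as the choice of the genes required.

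Genes of mitosis and the spindle had a median treatment effect of 0.13 at day 1 and 0.88 at day 3, and the larger effect at day 3 came with a lower level in GP cultures. In arrays of whole cultures, fewer cells in mitosis and less of these RNAs per cell cannot be told apart. Their GP level at day 1 was above the day 0 level for 40 of 41 tested genes, by a median of 1.05 on the log2 scale, against 0.00 over all genes. Of all 5643 tested genes, 2835 were above their day 0 level. Aurkb, the kinase of the chromosomal passenger complex, read 294.8, 250 and 232.4 intensity units in preps 1 to 3 of GP cultures at day 1 and 272.1, 280.7 and 298.6 in treated cultures. At day 3 it read 91.9, 104.4 and 114.8 in GP cultures and 241.2, 298.6 and 238.1 in treated cultures. The day 3 GP arrays lay below the other 9 with no overlap. The effect was 0.14 ± 0.16 at day 1 and 1.32 ± 0.16 at day 3 (limma adjusted p = 0.884 and 0.000707), and the late minus early difference was 1.18 ± 0.22, with 1.51, 1.35 and 0.69 in the 3 preps (adjusted p = 0.634, and 0.0745 with the block). Its untreated level at day 0 was 128.3, 144.7 and 162.1.

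Cdc20, the activator of the anaphase-promoting complex, read 1136.6, 1048.5 and 928.6 in GP cultures at day 1 and 296.7, 342.7 and 446.3 at day 3. In treated cultures it read 1068.8, 1154.0 and 1168.4 at day 1 and 652.0, 758.0 and 757.0 at day 3. Both media were lower at day 3, GP cultures by more: the change with time was -1.54 ± 0.16 in GP (limma adjusted p = 0.000998) and -0.65 ± 0.16 in treated cultures (0.158, and 0.0243 with the block), which differ by 0.89 ± 0.23. Ccnb2, a B-type cyclin of the mitotic kinase, fell by 1.20 ± 0.13 in GP cultures (adjusted p = 0.000998), and its change in treated cultures was -0.51 ± 0.13 (0.158, and 0.0225 with the block).

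Stmn1, a tubulin-binding protein that destabilises microtubules, read 1711.5, 1723.6 and 1702.4 in GP cultures at day 1, and 718.0, 642.7 and 911.4 at day 3. In treated cultures it was at 1412.6, 1619.7 and 1906.5 at day 1, and at 1186.6, 1343.9 and 1468.8 at day 3. The treatment effect was 0.89 ± 0.22 higher at day 3 than at day 1, at an adjusted p of 0.829, or 0.0745 in the blocked limma fit. The kinesins Kif20a and Kifc1, chosen after their values were seen, had differences of 1.05 ± 0.38 and 2.28 ± 0.82 (adjusted p = 0.0745 and 0.0873 with the block), and a second probe set of Kif20a gave 1.68. The probe sets of Plk1 and Kifc1 and the first one of Kif20a carry the manufacturer's marks for probes shared with similar transcripts. The second probe set of Kif20a does not.

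**Figure D3:**
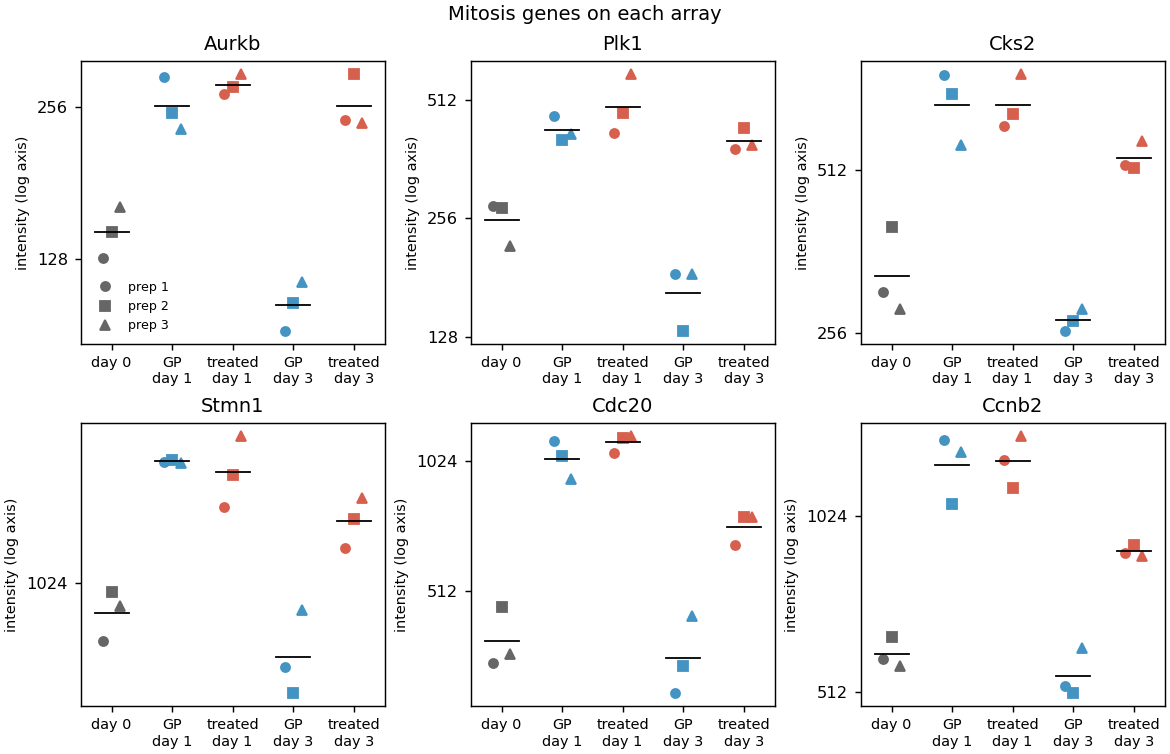
Intensity (log axis) of 6 mitosis genes on each of the 15 arrays, with 1 symbol per prep and the geometric mean of each group as a bar; treated means GP with AA and BMP-2. In every panel the 3 arrays of GP cultures at day 3 lie below all arrays of the other day 1 and day 3 groups.

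Over the list of 41 tested mitosis and spindle genes, the median late minus early difference was 0.77, with 1.04, 0.82 and 0.49 in the 3 preps, against 0.01 over all 5643 tested genes. The difference was above 0 in all 3 preps for 35 of the 41 genes (85.4%), against 17.4% of all genes. Pttg1, securin, was the 1 gene below 0 in all 3 preps. The day 3 GP arrays lay below the other 9 arrays for 28 of the 41 (68.3%), against 2.71% of all genes.

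In GP cultures 23 of the 41 fell from day 1 to day 3 and 0 rose, where 0.671% of all probe sets fell, and with the block 32 fell, where 1.41% of all did. In treated cultures 0 of the 41 passed in either direction over the same days (limma, with 15 lower and 0 higher at an unadjusted p under 0.05), where 0.0537% of all probe sets fell, and with the block 8 fell, where 1.81% of all did. At the unadjusted p (limma), 213 of all 5643 tested genes were lower in treated cultures. The median change with time was -1.25 in GP and -0.48 in treated cultures. The treatment effect passed for 0 of 41 at day 1 (2 higher at an unadjusted p under 0.05, and 0 passed with the block) and for 19 at day 3, all higher, where 2.03% of all probe sets rose. At day 1, 325 of all 5643 tested genes were higher at the unadjusted p (limma).

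These counts varied with the arrays used. With each of the 12 arrays left out in turn, 10 (without GP day 3 prep 2) to 26 (without GP day 3 prep 3) genes fell in GP cultures, and 10 to 23 rose at day 3, with the same arrays at the ends and 12 without treated day 3 prep 1. The count in GP cultures was 11, 15 and 14 without GP day 1 preps 1, 2 and 3 and 14 without GP day 3 prep 1. Without all arrays of prep 1 or of prep 2, 0 of 41 passed in either comparison, and the median late minus early difference was 0.65 and 0.77. Without all arrays of prep 3, 28 fell in GP cultures and 24 rose at day 3, and the median was 0.96. Each of these fits had 2 arrays a group. Without prep 1 or prep 2, counts of other lists fell to 0 as well, as given below, so these 0 counts are not particular to mitosis genes. With the block and without the GP day 3 prep 3 array, 32 fell in GP cultures and 9 in treated cultures.

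Genes of DNA replication and S phase followed this course less closely by their values. Their median late minus early difference was 0.14 over 42 genes (0.27, 0.11 and -0.02 in the preps). Of them, 10 were above 0 in all 3 preps (23.8%, against 17.4% of all genes) and 5 below (11.9%, against 15%). Their median effect was 0.38 at day 1 and 0.68 at day 3, so the list stood higher in treated cultures at both days. At day 1 0 passed (limma, 14 higher at an unadjusted p under 0.05, as were 325 of all 5643 tested genes). With the block 5 rose at day 1, where 2.07% of all probe sets did. At day 3 10 rose, where 2.03% of all probe sets did, or 24 with the block (6.84%). With single arrays left out, 2 (without GP day 3 prep 2) to 11 (without treated day 1 prep 3) rose at day 3, and the median difference was 0.03 (without GP day 1 prep 1) to 0.32 (without treated day 1 prep 3). Without all arrays of prep 1 or of prep 2, 0 rose at day 3, and without those of prep 3, 9 did. In GP cultures 1 fell from day 1 to day 3 (0.671% of all probe sets), and 5 with the block (1.41%). At an unadjusted p under 0.05 (limma), 16 were lower over these days in GP cultures and 0 higher. Of all 5643 tested genes, 214 were lower and 177 higher in the same way. The median change with time was -0.46 in GP and -0.27 in treated cultures. The day 3 GP arrays lay below the other 9 for 22 of the 42 (52.4%), against 2.71% of all genes. GP levels at day 1 were above day 0 for 40 of the 42, and for 2835 of all 5643 tested genes. The difference between the lists was not tested.

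Promoters are printed for 4 mitosis genes because the group moved together and because its promoters held short motifs known from cell cycle genes more often than other promoters did. The motifs searched on both strands were CCAAT, the box bound by the factor NF-Y, and TTTGAA, the core of the cell cycle homology region through which mitotic genes are repressed in resting cells. None of these motifs contains another. RefSeq promoters (GRCm38.p6, 250 bases before to 50 after a start) were matched for 33 of the 41 genes, with 36 starts. TTTGAA was present in 27 of the 36 windows (75%), against 17.9% of 32851 promoters of this length and 12% of the 5911 promoters of tested genes. CCAAT was present in 30 of 36 (83.3%), against 37.4% and 37.3%. TTGGCGC was present in 3 of 36 (8.33%), against 2.45% and 4.67%. For the replication list, with 48 windows of 38 genes, the shares were 14.6% for TTTGAA, 56.2% for CCAAT and 20.8% for TTGGCGC. A match is a description of the sequence and was not tested as a site.

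The 150 bases before the start are given 5' to 3' on the gene's strand, with matches to CCAAT or TTTGAA, on either strand, in capitals. They lie at chr4:118437344-118437493 (minus strand) for Cdc20, chr9:70421555-70421704 (minus) for Ccnb2, chr13:51645082-51645231 (plus) for Cks2, the small subunit bound by mitotic kinases, and chr17:33890634-33890783 (minus) for Kifc1. Each holds CCAAT, or ATTGG on the printed strand, at least 2 times.
Cdc20: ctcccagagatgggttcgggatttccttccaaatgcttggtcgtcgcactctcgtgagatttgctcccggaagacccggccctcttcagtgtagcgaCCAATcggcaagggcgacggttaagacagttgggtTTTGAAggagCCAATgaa
Ccnb2: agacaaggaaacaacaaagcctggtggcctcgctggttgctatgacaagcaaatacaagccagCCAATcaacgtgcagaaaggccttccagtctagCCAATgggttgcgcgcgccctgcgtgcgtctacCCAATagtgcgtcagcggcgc
Cks2: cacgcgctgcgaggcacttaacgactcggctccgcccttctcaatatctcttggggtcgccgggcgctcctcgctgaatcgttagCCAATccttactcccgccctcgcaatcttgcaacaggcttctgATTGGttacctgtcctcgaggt
Kifc1: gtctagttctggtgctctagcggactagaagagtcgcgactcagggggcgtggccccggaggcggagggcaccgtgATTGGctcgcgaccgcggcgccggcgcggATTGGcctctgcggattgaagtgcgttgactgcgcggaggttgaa

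In Cdc20 the TTTGAA match begins 18 bases before the start and lies between CCAAT matches that begin 53 and 8 bases before it. Further TTTGAA matches lie outside the printed bases: in Ccnb2 167 bases before the start and just after it, and in Kifc1 just after it. Cks2 had no TTTGAA match anywhere in its window.

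Osteoblast genes formed the list with the second highest median. Over 11 tested genes it was 0.45 (0.90, 0.28 and 0.11 in the preps). Of these genes 9 were growing increases, as were 1639 of all 5643 tested genes, and 6 were above 0 in all 3 preps (54.5%, against 17.4% of all genes). The median was 0.23 without treated day 1 prep 1, 0.24 without GP day 1 prep 3 and 0.19 without all of prep 1. Alpl, the alkaline phosphatase that frees phosphate for mineral, read 18.5, 18.2 and 23.9 in GP and 61.8, 71.3 and 193.9 in treated cultures at day 1. At day 3 it read 33.4, 20.6 and 20.9 in GP and 363.3, 557.1 and 970.9 in treated cultures. Treated and GP arrays did not overlap at either day, and the treated day 3 arrays lay above all treated day 1 arrays. For Alpl the late minus early difference was 2.34 ± 0.70, with 1.70, 2.79 and 2.52 in the preps and a 95% interval of 0.82 to 3.85 (limma adjusted p = 1.00, and 0.291 with the block). The GP level stayed low, so this difference arose in treated cultures, where the change with time was 2.62 ± 0.50 (adjusted p = 0.0551, and 0.0110 with the block), against 0.28 ± 0.50 in GP cultures.

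Tnfrsf11b, osteoprotegerin, the decoy receptor that limits osteoclast formation, read 118.4, 141.4 and 170.7 in GP and 203.3, 270.4 and 210.6 in treated cultures at day 1. At day 3 it read 73.4, 115.2 and 116.9 in GP and 235.8, 533.0 and 500.0 in treated cultures. The groups did not overlap at either day. The effect was 0.67 ± 0.31 at day 1 (adjusted p = 0.423) and 2.00 ± 0.31 at day 3 (0.00319), and the late minus early difference was 1.32 ± 0.43 (1.00, and 0.148 with the block). The change with time was 0.81 ± 0.31 in treated and -0.51 ± 0.31 in GP cultures, and neither passed.

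Omd, osteomodulin, a small proteoglycan of mineralised matrix, read 4.5, 13.8 and 28.5 in treated cultures at day 1 and 87.2, 159.4 and 243.5 at day 3. In GP cultures it read 11.9, 15.3 and 33.3 and then 8.1, 30.3 and 89.6, so the treated day 3 arrays overlapped the GP array of prep 3. Its late minus early difference was 3.01 ± 1.38 over all preps (4.83, 2.54 and 1.67), with an adjusted p of 1.00, and 0.104 with the block. Col1a1, the main collagen gene of bone, differed by 0.33 ± 0.24, with a second probe set at -0.21, and Sparc, a collagen-binding matrix protein, by 0.45 ± 0.25. Cdh11, osteoblast cadherin, ran the other way. Its effect was -0.44 ± 0.17 at day 1 and -1.24 ± 0.17 at day 3 (adjusted p = 0.318 and 0.00138), a difference of -0.80 ± 0.24. Runx2, Sp7, Bglap and Spp1 were not analysed here.

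The list of TGF-beta and matricellular growth factor genes had a median of -0.12 over 19 genes (-0.17, 0.06 and -0.14), with 6 above 0 and 13 below. Without GP day 1 prep 1 it was 0.04, and without treated day 1 prep 3 it was -0.36. Members ran both ways: Tgfb1, transforming growth factor beta 1, gave 1.47 ± 0.47, while its relatives Tgfb2 and Tgfb3 gave -1.13 and -0.59, and Ltbp2, which binds microfibrils, gave -1.35. Tgfb1 was at 99.2, 182.3 and 211.2 in treated cultures at day 1 and 411.9, 514.1 and 435.0 at day 3, and its difference was 2.44, 1.71 and 0.25 in the preps, so prep 3 held little of it. Ccn2, a matricellular growth factor, gave 1.03 ± 0.91, above 0 in all 3 preps.

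Pdgfa, a chain of platelet-derived growth factor, read 453.5, 377.7 and 375.7 in GP and 360.0, 425.8 and 403.1 in treated cultures at day 1, with full overlap, and 394.3, 558.3 and 612.6 against 752.4, 1323.7 and 1867.8 at day 3, with none. It rose from day 1 to day 3 in treated cultures by 1.64 ± 0.26 (limma adjusted p = 0.0205), 1 of 7 probe sets that did (0.0939%), and its change in GP cultures was 0.36 ± 0.26. Plat, tissue plasminogen activator, also rose with time in treated cultures, by 1.52 ± 0.24 (0.0205), and its late minus early difference was 1.06 ± 0.34. Col3a1, type III collagen, differed by 0.98 ± 0.34 (1.21, 1.25 and 0.46), and its other probe sets gave 1.30 and 0.73. Tnc, tenascin C, differed by 0.93 ± 0.64, above 0 in all 3 preps, and a second probe set gave 0.48, with -0.56 in prep 3. Myc, a transcription factor that drives growth, differed by 0.88 ± 0.40, with an effect of 0.06 at day 1 and 0.94 at day 3.

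The direct targets and brakes of BMP signalling had no common course. Over 25 tested genes the median late minus early difference was -0.09 (0.13, 0.19 and -0.41 in the preps), with 7 growing increases, 12 fading increases, 4 growing decreases and 2 fading decreases. The list's median effect was 0.50 at day 1 and 0.35 at day 3. At day 1, 4 rose and 0 fell, where 0.295% of all probe sets rose, and at day 3, 4 rose and 1 fell, where 2.03% rose and 2.08% fell. With the block 9 rose at each day (2.07% and 6.84% of all probe sets). The count at day 1 was 0 without GP day 1 prep 2, 1 without GP day 1 prep 1 or treated day 1 prep 2, 2 without GP day 1 prep 3 or treated day 1 prep 1, and 7 without treated day 3 prep 3, which also gave 7 at day 3 and a median difference of 0.05. Without all arrays of prep 1 or of prep 2, 0 rose at either day. Without those of prep 3, 7 rose at day 1 and 10 at day 3. Smad6, an inhibitory Smad, rose at both days (1.72 ± 0.29 and 1.58 ± 0.29, limma adjusted p = 0.0158 and 0.00917), and its late minus early difference was -0.14 ± 0.42 with a 95% interval of -1.03 to 0.75. Dlx2, a homeobox gene, also rose at both days (1.41 and 1.40), with a difference of -0.01 ± 0.32 and an interval of -0.70 to 0.67. These intervals still hold differences of more than 0.6 either way.

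In prep 3 several of these genes were low in treated cultures at day 3, and Id1, Id3 and Dlx1 were among those low there at day 1 as well. Id2, which blocks DNA binding by helix-loop-helix factors, read 955.5, 999.5 and 909.7 in treated cultures at day 1, and 741.4, 664.7 and 129.5 at day 3. Smad6 read 728.7, 703.2 and 803.9, and then 763.4, 730.2 and 304.8. Id1 read 439.6, 353.4 and 185.7, and then 204.5, 129.0 and 31.9. The within-prep differences were accordingly 2.14, 1.65 and -1.07 for Id2, 0.19, 0.34 and -0.95 for Smad6, and 0.71, 0.28 and -1.83 for Id1. Dlx1, Dlx2 and Msx2 likewise had their lowest value in prep 3, at -1.12, -0.94 and -1.0. Without that single array, the treated day 3 array of prep 3, the differences of Id1, Smad6, Dlx2 and Msx2 were 0.50, 0.29, 0.16 and 0.09 in place of -0.28, -0.14, -0.01 and -0.23.

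Id3 read 856.2, 574.1 and 445.8 in GP and 2656.7, 2758.7 and 1238.2 in treated cultures at day 1, and 145.3, 114.5 and 158.8 against 2092.8, 1794.8 and 612.4 at day 3. Treated arrays lay above GP arrays at both days. The GP level fell by 2.12 ± 0.41 from day 1 to day 3 (limma adjusted p = 0.0269), and the treated level changed by -0.66 ± 0.41 (0.764). Day 3 thus exceeded day 1 in effect by 1.46 ± 0.58, with 2.21, 1.71 and 0.47 in the preps (1.00, and 0.279 with the block). As in the mitosis genes, the level in GP cultures had the larger change with time.

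Id4, the fourth member of the family, ran opposite to Id3. It read 587.4, 724.0 and 506.6 in GP and 472.0, 309.0 and 223.7 in treated cultures at day 1, and 776.8, 882.1 and 636.3 against 228.2, 118.0 and 91.5 at day 3. The effect was -0.91 ± 0.31 at day 1 (limma adjusted p = 0.248) and -2.49 ± 0.31 at day 3 (0.00114), and the late minus early difference was -1.58 ± 0.44 with close values in the preps (-1.45, -1.67 and -1.62; adjusted p = 1.00, and 0.0745 with the block).

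Fading increases included Ptgs2, cyclooxygenase 2, which makes prostaglandins, and its level differed between preps in every group. It read 55.1, 36.0 and 14.1 in GP and 421.1, 231.4 and 76.6 in treated cultures at day 1, and 38.8, 36.8 and 15.9 against 89.8, 78.7 and 23.4 at day 3. In each prep the treated array was above its GP array at both days, by more at day 1. The effect was 2.69 ± 0.73 at day 1 and 0.95 ± 0.73 at day 3 (limma adjusted p = 0.111 and 0.576, and 9.07e-05 and 0.0149 with the block). The late minus early difference was -1.73 ± 1.03 without and ± 0.33 with the block, and the 3 preps gave -1.72, -1.59 and -1.88 (adjusted p = 1.00 and 0.0745).

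Smad7, the inhibitory Smad that also restrains TGF-beta receptors, read 93.7, 139.7 and 74.3 in GP and 262.1, 178.2 and 207.4 in treated cultures at day 1. At day 3 it read 125.9, 109.3 and 88.0 in GP and 133.9, 114.6 and 75.9 in treated cultures, which overlapped fully. The effect was 1.11 ± 0.26 at day 1 and -0.02 ± 0.26 at day 3 (adjusted p = 0.0616 and 0.987, and 0.00858 and 0.971 with the block), and the late minus early difference was -1.12 ± 0.37 (1.00, and 0.205 with the block). Klf10, a zinc finger factor induced early by TGF-beta and BMP, rose at day 1 by 1.05 ± 0.20 (adjusted p = 0.0281), and its effect at day 3 was 0.35 ± 0.20, a difference of -0.69 ± 0.29. Ski, a repressor of Smad complexes chosen after its values were seen, differed by -0.43 ± 0.24, below 0 in all 3 preps. Smad6 and Smad7 thus had differences of -0.14 and -1.12, which were not tested against each other.

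Npr3, the clearance receptor for natriuretic peptides, read 14.4, 14.9 and 29.8 in GP and 110.1, 58.4 and 75.2 in treated cultures at day 1, and 30.7, 31.2 and 40.7 against 19.1, 30.4 and 16.0 at day 3. The treated arrays were above GP at day 1 and below at day 3 in every prep. Its late minus early difference was -2.77 ± 0.79 (limma adjusted p = 1.00, and 0.205 with the block). Gatm, which makes the precursor of creatine, was at 414.3, 309.0 and 302.8 in treated cultures at day 1 and at 172.2, 134.8 and 117.8 at day 3, and its GP arrays read 167.3 to 240.2, below treated cultures at day 1 and overlapping them by 1 array at day 3. It fell with time in treated cultures by 1.28 ± 0.19 (0.0179), and its late minus early difference was -1.17 ± 0.26 (adjusted p = 0.634, and 0.0745 with the block). Irf5, an interferon regulatory factor, had an effect of 0.90 ± 0.22 at day 1 and -0.12 ± 0.22 at day 3.

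Among growing decreases, Fbln2, fibulin 2 of elastic fibres and basement membranes, shared the smallest adjusted p of the blocked fit, 0.0745, with Aurkb, Stmn1, Gatm, Id4 and others. It read 2367.7, 2242.6 and 2551.7 in GP and 2000.9, 1723.7 and 1353.3 in treated cultures at day 1, and 2327.1, 1848.8 and 2309.1 against 764.5, 615.1 and 727.0 at day 3. Treated arrays lay below GP arrays at both days, and the treated day 3 arrays lay below all others. The effect was -0.51 ± 0.16 at day 1 (limma adjusted p = 0.167) and -1.62 ± 0.16 at day 3 (0.000206). Its difference between the days was -1.11 ± 0.22 (-1.36, -1.21 and -0.75; adjusted p = 0.634). Fbln2 fell with time in treated cultures by 1.26 ± 0.16 (0.00939), 1 of 4 probe sets that did (0.0537%), and changed by -0.15 ± 0.16 in GP cultures.

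The other 3 that fell with time in treated cultures were Gatm, Nqo1 and Ackr3. Nqo1, a quinone reductase of the oxidative stress response, read 158.7, 197.6 and 91.2 in treated cultures at day 1 and 41.6, 38.6 and 38.0 at day 3, and its GP arrays read 92.0 to 166.3 over both days. Its effect was 0.02 ± 0.29 at day 1 and -1.48 ± 0.29 at day 3 (adjusted p = 0.995 and 0.0121), a difference of -1.51 ± 0.41. A second probe set gave -1.06, and both carry marks for shared or reduced probes. Ackr3, a scavenging receptor for the chemokine Cxcl12, read 199.3, 147.1 and 86.2 in treated cultures at day 1 and 43.5, 26.2 and 24.8 at day 3, against 316.0, 243.4 and 198.0 and then 175.3, 130.5 and 175.0 in GP cultures. Its late minus early difference was -1.52 ± 0.45 (1.00, and 0.0849 with the block). Cxcl12 itself, chosen after its values were seen, differed by -1.46 ± 1.09 (-2.04, -1.77 and -0.55 in the preps; adjusted p = 0.131 with the block), and -1.24 and -0.75 in its other probe sets.

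The collagen IV chain genes Col4a1 and Col4a2, whose products form the network of basement membranes, gave differences of -1.14 ± 0.40 and -0.86 ± 0.36, below 0 in all 3 preps. Col4a1 read 425.6, 480.4 and 694.5 in GP and 271.4, 213.8 and 250 in treated cultures at day 1, and 571.6, 640.5 and 1107.5 against 152.5, 112.9 and 225.2 at day 3. The groups did not overlap at either day, and only the day 3 effect passed (-1.10 ± 0.28 and -2.24 ± 0.28, limma adjusted p = 0.0962 and 0.00114). Nid2, nidogen 2, which joins collagen IV to laminin, gave -0.79 ± 0.51, with 0.08 in prep 3. The basement membrane list of 14 genes had a median of -0.03 (-0.16 to 0.06 with single arrays left out), with 3 genes below 0 in all 3 preps and 4 above.

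Htra1, a secreted serine protease, read 193.6, 331.4 and 437.8 in GP cultures at day 1 and 844.0, 1111.3 and 1080.7 at day 3. In treated cultures it read 225.3, 221.4 and 206.1 and then 206.7, 263.4 and 411.1. The late minus early difference of -1.35 ± 0.44 (1.00, and 0.133 with the block) thus came from GP cultures, where Htra1 rose with time by 1.72 ± 0.31 (limma adjusted p = 0.0183), 1 of 3 probe sets that did (0.0403%). Csf1, the growth factor of macrophages and osteoclast precursors, gave -0.88 ± 0.39, and Vcan, the proteoglycan versican, chosen after its values were seen, gave -1.09 ± 0.81 with -1.01, -1.07 and -1.18 in the preps. The effect on Csf1 was 0.10 at day 1 and -0.77 at day 3, and that on Vcan 0.52 and -0.56. Osmr, the receptor subunit for oncostatin M, also chosen after its values were seen, gave -1.08 ± 1.20 without and ± 0.20 with the block, with -0.99, -0.92 and -1.33 in the preps and an adjusted p of 0.0745 with the block.

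Tnnc1, the troponin C gene of cardiac and slow muscle fibres, had the largest difference of the 24 genes. It read 30.4, 73.6 and 41.3 in GP and 7.5, 24.4 and 3.4 in treated cultures at day 1, and 201.0, 400.2 and 164.1 against 5.2, 3.0 and 2.6 at day 3, where 1 treated value lay under the floor of 2.8 units and was set to it. The late minus early difference was -3.66 ± 0.85 (limma adjusted p = 0.657, and 0.0745 with the block), and -2.14 with the floor at the median intensity. The summed level of 12 skeletal muscle markers, of which 4 (Acta1, Myf5, Tnni2 and Tnnt3) were too dim to be tested, was 426.3 to 758 units in GP cultures at day 3 and 269.3 to 429.3 in treated cultures, against 308.2 to 408.3 and 301.2 to 323.3 at day 1. The sum includes Tnnc1 itself, which alone read 164.1 to 400.2 units in GP cultures at day 3. It read 2.6 to 5.2 in treated cultures at day 3 and 30.4 to 73.6 in GP cultures at day 1. The sum was not formed without Tnnc1, so it does not show how the other muscle markers changed. Enpep, a membrane aminopeptidase, fell at both days (-3.51 ± 0.57 and -5.62 ± 0.57, adjusted p = 0.0107 and 0.000226), and its difference was -2.11 ± 0.81, with treated values of 6.5 to 37.0. A second probe set of Enpep, with a mark for a reduced choice of probes, gave -0.37. Jup, plakoglobin of cell junctions, gave -1.63 ± 0.48 and C8g, a lipocalin-fold complement component, -1.53 ± 0.39, at mean signals of 33.6 and 31.5 units, and that of Jup was 0.02 with the floor at the median intensity. Eif4g2, a translation factor, gave -0.92 ± 0.26 at a mean signal of 106.1.

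Among fading decreases, Tiparp, an ADP-ribosylating enzyme that represses the aryl hydrocarbon receptor, read 177.4, 198.6 and 203.8 in GP and 60.9, 41.7 and 105.1 in treated cultures at day 1, and 78.3, 160.1 and 140.6 against 107.1, 104.0 and 265.4 at day 3. The groups were apart at day 1 and overlapped at day 3. The effect was -1.58 ± 0.39 at day 1 and 0.25 ± 0.39 at day 3 (limma adjusted p = 0.0736 and 0.829, and 0.0112 and 0.668 with the block), and the late minus early difference was 1.83 ± 0.55 with close values in the preps (1.99, 1.63 and 1.87; 1.00, and 0.165 with the block). Ahr, the receptor itself, read 47.4, 57.2 and 48.0 in treated cultures at day 1 and 176.6, 153.5 and 182.2 at day 3, and gave 1.33 ± 0.46 (1.59, 0.94 and 1.45). Its change with time in treated cultures was 1.75 ± 0.33 (0.0551, and 0.00160 with the block). Nqo1, another gene known to respond to this receptor, went the other way (-1.51).

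The detoxifying enzymes Ephx1, an epoxide hydrolase, and Gstm1, a glutathione transferase, gave 0.85 ± 0.46 and 0.64 ± 0.34, above 0 in all 3 preps, and another probe set of Gstm1 gave -0.18. Both were chosen after their values were seen. Aox1, an aldehyde oxidase, fell at both days, by 2.40 ± 0.28 and 1.38 ± 0.28 (limma adjusted p = 0.00117 and 0.0140), a difference of 1.02 ± 0.40. Its treated values at day 1 were 14.4 to 24.0, and with the floor at the median intensity the difference was -0.19. P2rx4, an ATP-gated channel also chosen after its values were seen, read 276.3, 188.6 and 108.7 in treated cultures at day 1 and 782.4, 582.2 and 468.1 at day 3, and its difference was 1.21 ± 0.58 (0.0745 with the block). Over the 32 oxidative stress and detoxification genes the median was -0.07 (0.12 without GP day 1 prep 3), with 9 above and 8 below 0 in all 3 preps, so these members did not stand for their list.

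**Figure D4:**
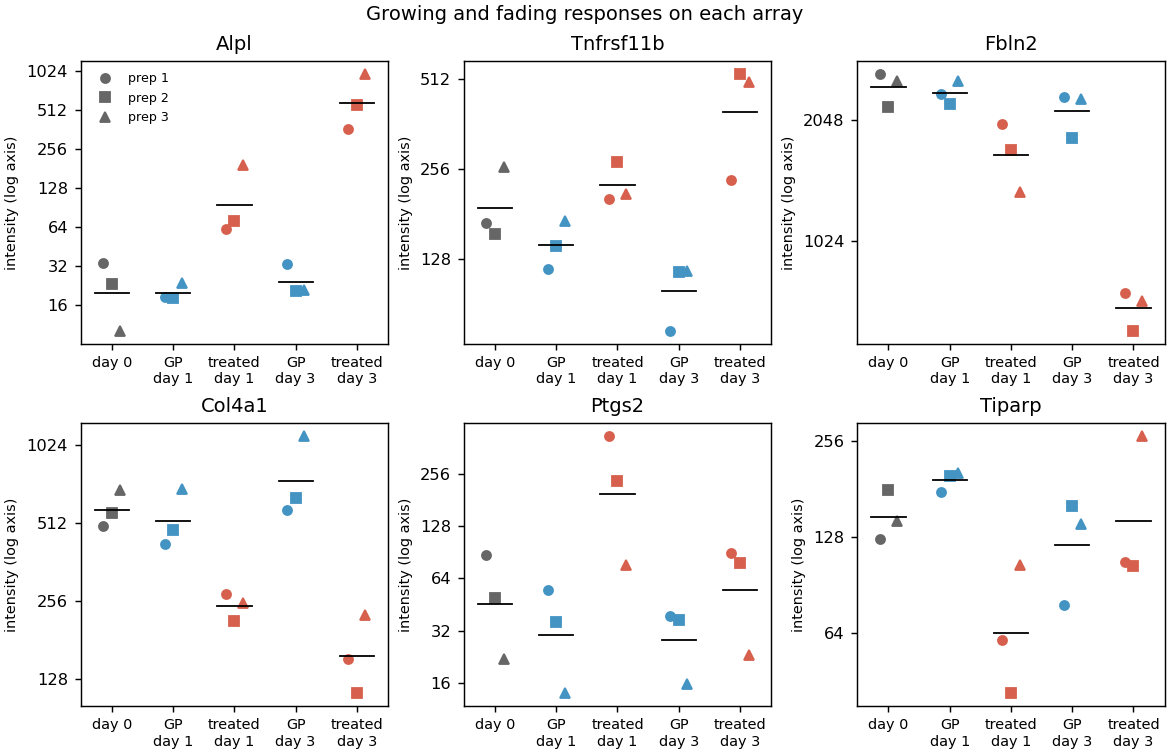
Intensity (log axis) of 6 genes on each of the 15 arrays, with 1 symbol per prep and the geometric mean of each group as a bar; treated means GP with AA and BMP-2. The treated arrays of Alpl and Tnfrsf11b are farther above GP at day 3 than at day 1, those of Fbln2 and Col4a1 farther below, and those of Ptgs2 and Tiparp nearer to GP at day 3.

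Hypoxia and glycolysis genes were lower in treated cultures at both days. Of 28 tested genes 7 fell at day 1 (0.631% of all probe sets fell) and 8 at day 3 (2.08%). With the block 11 and 13 fell, where 2.92% and 6.99% of all probe sets did. At either day 0 rose (limma, with 0 higher at an unadjusted p under 0.05 and with the block). With single arrays left out the counts were 3 (without GP day 1 prep 1) to 9 at day 1 and 4 (without treated day 3 prep 2) to 9 at day 3. At day 1 the count was 4 without GP day 1 prep 2 or 3 or treated day 1 prep 1 or 2, and at day 3 it was 5 without GP day 3 prep 1 or 2 or treated day 3 prep 1 or 3. Without all arrays of prep 1 or of prep 2, 0 fell at either day. Without those of prep 3, 8 fell at day 1 and 10 at day 3. The median effect was -0.62 and -0.56, and the median late minus early difference was 0.12 (0.21, -0.18 and 0.33), with 19 fading and 7 growing decreases. Aldoa, the glycolytic aldolase, fell by 1.29 ± 0.15 at day 1 and 0.97 ± 0.15 at day 3 (adjusted p = 0.00117 and 0.00265), a difference of 0.32 ± 0.21. The probe set of Aldoa carries a mark for shared probes. Pdk1, which restrains entry of pyruvate into mitochondria, fell by 1.72 ± 0.30 and 1.67 ± 0.30, a difference of 0.05 ± 0.43. Ddit4, an inhibitor of mTOR signalling, fell at day 1 by 1.82 ± 0.28 (0.0107), and its effect at day 3 was -0.98 ± 0.28 (0.0718), a difference of 0.84 ± 0.40 with 1.08, 0.80 and 0.63 in the preps.

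Cytosolic ribosomal protein genes had small differences, above 0 for 21 of 24 tested genes (87.5%, against 50.7% of all genes) and below 0 for 3. The median was 0.17 (0.23, 0.12 and 0.16), and 18 were fading decreases. In all 3 preps 17 were above 0 (70.8%, against 17.4% of all genes) and 0 below (against 15%). With single arrays left out the median was 0.05 (without treated day 1 prep 3) to 0.28 (without treated day 1 prep 2), and it was 0.03 with quantile normalization. None passed at either day (limma, with 1 lower at day 1 at an unadjusted p under 0.05 and 0 at day 3, and 0 with the block), and the median effect was -0.13 at day 1 and 0.04 at day 3. Chemokine, cytokine and NF-kappaB genes had a median of -0.18 over 21 genes (-0.23, -0.59 and -0.48), with 13 growing decreases and 9 below 0 in all 3 preps (42.9%, against 15% of all genes). The sign of this median depended on single arrays, from -0.83 without GP day 1 prep 1 to 0.16 without GP day 1 prep 3. For IGF and growth factor signalling the median was -0.30 over 20 genes (-0.35, -0.28 and -0.06). Interferon response genes stood lower at both days by their medians of -0.59 and -0.84. At day 1, 3 of 26 fell (0.631% of all probe sets), or 10 with the block (2.92%). At day 3, 5 fell (2.08%), or 14 with the block (6.99%). The count at day 1 was 0 without GP day 1 prep 1 or 2, and that at day 3 was 2 without GP day 3 prep 1 or 2. Without all arrays of prep 1 or of prep 2 both counts were 0, and without those of prep 3 they were 4 and 6. The median difference was -0.11, and -0.28 to 0.05 with single arrays left out, the highest without GP day 3 prep 2 or treated day 3 prep 3. Ifi47, an interferon-inducible GTPase, fell by 3.36 ± 0.61 at day 1 (adjusted p = 0.0191), and its difference of 1.39 ± 0.87 had opposite signs in the preps (-0.50, 3.00 and 1.68). Oxidative phosphorylation, proteasome, cholesterol synthesis and ribosome biogenesis lists had medians of 0.06, -0.08, 0.10 and 0.05, and with single arrays left out these were 0.02 to 0.16, -0.10 to 0.01, -0.05 to 0.28 and -0.11 to 0.16.

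**Figure D5:**
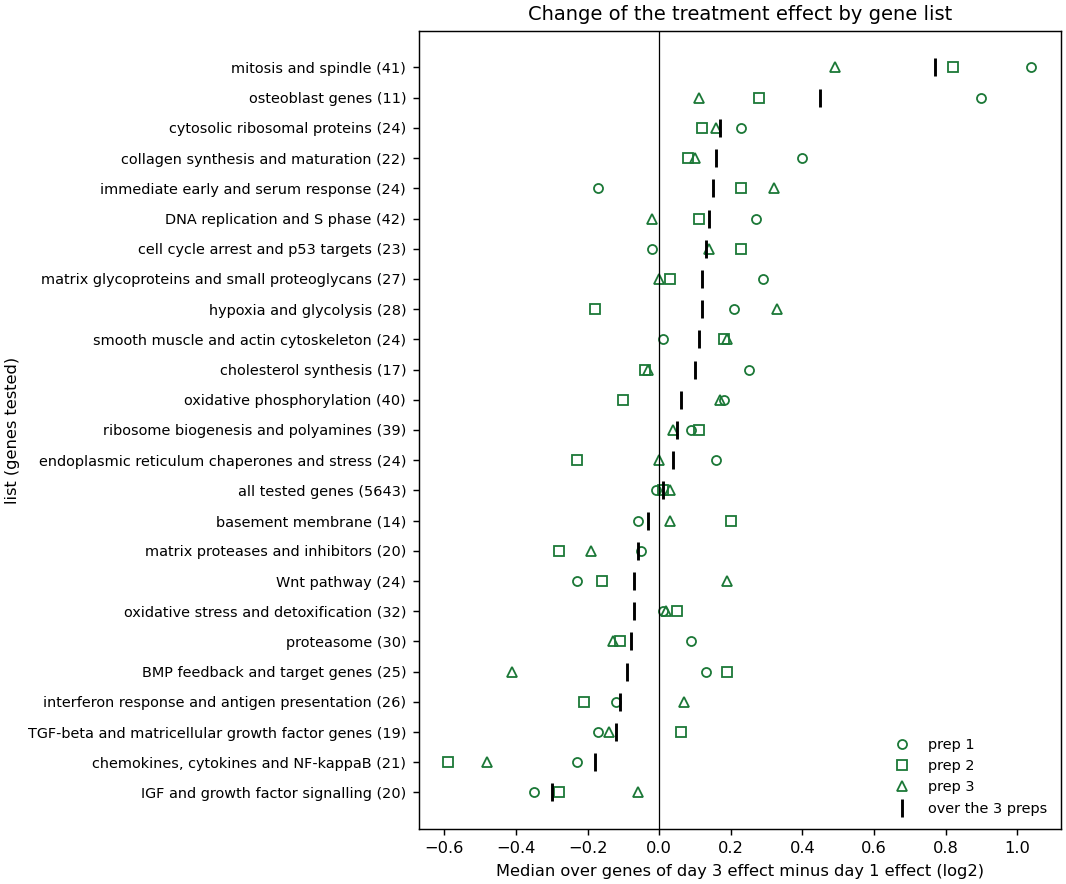
Median late minus early difference (log2) of each gene list with 8 or more tested genes, in each prep (symbols) and for the mean of the preps (bar). The mitosis list lies highest at 0.77, and the 5643 tested genes lie at 0.01.

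The remaining genes fixed by name had these late minus early differences: Gadd45b, a growth arrest and DNA damage gene, -0.43 ± 0.35, its relative Gadd45g 0.30 ± 0.60, Srm, spermidine synthase, -0.14 ± 0.30, Dlx1 -0.38 ± 0.47, Dlx5 -0.03 ± 0.32, Msx2 -0.23 ± 0.54 and Id2 0.91 ± 0.86. The preps did not agree in sign for any of these 7 genes. Gadd45b and Srm rose at both days, by 1.41 and 0.98 for Gadd45b and 1.32 and 1.18 for Srm, both from probe sets marked for shared probes. Gpc1, a cell surface heparan sulphate proteoglycan, gave 0.98 ± 0.58, with 1.69, 0.63 and 0.61 in the preps.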

How the data were processed

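The deposited values are linear intensities, 1 per probe set and array, of 15 single-colour oligonucleotide arrays. From the values, the authors had scaled the arrays to nearly equal trimmed means, and the software and its settings are not given in the sources used here. No further normalization was applied. Intensities were floored at 2.8 (their 10th percentile), and 7453 probe sets with a geometric mean over 22.3 (the 40th percentile) were tested on the log2 scale with limma 3.58.1 (R 4.3.3, eBayes with trend, 1 coefficient for each of 5 groups, Benjamini-Hochberg over all tested probe sets). Each ± is the standard error of the fit (n = 3 arrays a group). Intervals at 95% are from the fit without the block unless said otherwise. The number of arrays limits the precision.

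Same-numbered preps deviated together from their group means (r = 0.26 to 0.51, 0.19 to 0.37 and 0.47 to 0.70 over the 10 pairs of arrays within preps 1, 2 and 3), so the prep number was used as a block in a second fit. Pairs of different preps, 75 in all, gave -0.77 to 0.26, which overlaps the range of prep 2. Deviations sum to 0 within a group, which draws pairs of different preps from the same group below 0. The gap between these ranges is therefore partly built in and is no test of the block.

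Of 12422 probe sets, 10833 had 1 gene symbol in the platform annotation, 396 several and 1193 none. A gene was represented by its probe set of highest mean signal. The named genes were the 12 in each direction with the smallest unadjusted p and 1 sign in all preps, up to 4 per gene list, a fixed set, and, where so stated, genes picked with their values known. The members, gene lists and tests were chosen with earlier results of these data known. The fits were tested on simulated data. Alternatives to the floor, filter, scaling, variance model, probe set and arrays were run.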

Additional observations from a re-analysis of the deposited data

How the results depend on the processing

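The count of probe sets with a late minus early difference past the threshold was 0 without and with the replicate block. It was 3 (2 higher, 1 lower) with the floor at the 50th percentile of intensity, and 4 (3 higher, 1 lower) with that floor and the block. It was 15 with the block and array weights (10 higher, 5 lower), and 15 with the block and without GP day 3 prep 3 (13 higher, 2 lower). Leaving out single arrays or whole preps without the block gave 0 to 1 in all, 0 to 1 higher and 0 to 0 lower. The fits with the block and another setting were chosen after seeing the data, and the causes of these changes were not tested.

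Of 76 genes followed over 33 settings, 64 kept their sign. The floor at the 50th percentile, with or without the block, gave -0.19 for Aox1 and 0.02 for Jup. Another probe set gave -0.21 for Col1a1 and -0.18 for Gstm1. Array weights gave 0.41 for Dlx2 (0.09 with the block), 0.10 for Dlx5, 0.43 for Id1 and 0.04 for Smad6. The block without GP day 3 prep 3 gave 0.23 for Dlx2, 0.25 for Id1, -0.02 for Pdk1 and 0.04 for Srm. Leaving out arrays or preps gave ranges of -0.30 to 0.45 for Dlx2, -0.19 to 0.16 for Dlx5, -0.12 to 0.88 for Gadd45g, -0.84 to 0.50 for Id1, -0.49 to 0.16 for Msx2, -0.21 to 0.32 for Pdk1, -0.38 to 0.29 for Smad6 and -0.38 to 0.01 for Srm.

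With 3 arrays a group, the median standard error of 0.37 on the log2 scale limits what the late minus early difference can show. Where some values are low, as in Tnnc1, Enpep and Ifi47, its size can also depend on the floor.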
